A study of Rattus norvegicus with 12 samples.

Results

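The response of ethanol-fed Kupffer cells to HA35 was followed here through the 3 miRNAs that the depositors listed as higher after HA35, miR-181b-1*, miR-362 and miR-34a*. HA35 is a small hyaluronic acid preparation of defined size. All 3 rows of that list were used, with the 3 libraries of ethanol-fed cells treated with HA35 and the 3 libraries of ethanol-fed cells left untreated (basal), 6 of the 12 libraries of the series. The depositors chose the rows because they were at least 2-fold higher with HA35 in these same libraries, so the size and direction of the differences below are what selected the miRNAs and are described without a test. The series was made to look for miRNAs that respond to chronic ethanol and, in turn, to HA35 in hepatic macrophages.

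Kupffer cells, the macrophages that reside in the liver sinusoids, were isolated from adult male Wistar rats. The rats had been given the Lieber-DeCarli liquid diet with ethanol for 4 weeks after a short ramp (ethanol-fed), or the same diet with maltose dextrin in place of ethanol (pair-fed, used below only in its basal state). Cells rested in culture for 18 h and then received 100 µg/ml HA35 or nothing for 5 h, and no LPS is named for the sequenced cells. The labels number the libraries of each group as day 1, day 2 and day 3. Whether the cells of a day came from 1 rat or from several is not stated there, so the spread given is that between libraries. The label of a primary Kupffer cell preparation could not be checked in these rows, since 0 of 5 macrophage and leukocyte miRNAs considered are in the HA35 list, as are 0 of 2 endothelial, 0 of 4 stellate and mesenchymal, 0 of 3 hepatocyte and 0 of 2 erythroid ones. In a bulk preparation, a change in the share of a cell type and a change in RNA per cell cannot be told apart.

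A miRNA is cut from a hairpin precursor as a short duplex. One strand usually enters an Argonaute protein and guides it to messenger RNAs that pair with the seed, the bases near the 5′ end, and the partner strand, marked by a star in older names, is mostly degraded but can also be loaded. In macrophages miRNAs tune signaling from Toll-like receptors such as TLR4, the receptor for bacterial lipopolysaccharide, to which chronic ethanol sensitizes Kupffer cells. Both miR-181b-1* and miR-34a* are star strands. The guide strand miR-34a is a transcriptional target of p53 that restrains the cell cycle, and the miR-181 family is known for its work in lymphocyte development and in inflammatory signaling. The third miRNA, miR-362, belongs to a group of precursors encoded close together on the X chromosome.

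The mature sequences are given because the listed star strands, miR-181b-1* and miR-34a*, carry other seeds than the better known guide strands of the same hairpins. All sequences are rat RefSeq entries (GRCr8), written 5′ to 3′, with the seed (bases 2 to 8) in capitals. The listed miR-181b-1* and miR-34a* were read as the 3p arms, and each is followed by its 5p guide strand. For miR-362 the deposited name gives no arm, and the 3p arm shown is the one the sequence table held.
rno-miR-181b-1-3p: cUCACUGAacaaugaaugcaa
rno-miR-181b-5p: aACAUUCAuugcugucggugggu
rno-miR-34a-3p: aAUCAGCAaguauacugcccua
rno-miR-34a-5p: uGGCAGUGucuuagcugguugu
rno-miR-362-3p: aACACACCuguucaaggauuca

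With miR-362 taken as its 3p arm, the 3 listed miRNAs had 3 different seeds. Among the 693 mature rat miRNAs of the table, 0 others carried the seed of miR-181b-1-3p and 0 others that of miR-34a-3p. In contrast, the guide strand miR-181b-5p shared its seed with miR-181a-5p, miR-181c-5p and miR-181d-5p, and miR-34a-5p shared its seed with miR-34b-5p, miR-34c-5p, miR-449a-5p and miR-449c-5p. The seed of miR-362-3p was also that of miR-329-3p.

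The precursors also differ in their surroundings. Within 50000 bases on the same strand, Mir181b1 has Mir181a-1, Mir362 has Mir501, Mir500, Mir188 and Mir532, and Mir34a has 0 miRNA neighbours. None of these neighbours, of the partner strands or of the other miR-181, miR-34 and miR-449 family members considered appears beside the listed miRNAs in the HA35 list or in the list of 30 miRNAs lower with ethanol feeding. Their own values were not analysed here, so whether strands of one hairpin or precursors of one cluster moved together was not tested.

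The 6 ethanol-fed libraries held 3490040 to 5722418 reads with HA35 and 2865329 to 4958302 reads in basal cells. Of these, 30.3%, 67.6% and 53.5% aligned to the genome in HA35 replicates 1, 2 and 3, against 50.4%, 56.9% and 56.6% in basal replicates 1, 2 and 3. In HA35 replicate 1, unlike the others, 50.1% of the reads were too short for alignment, against 22.6% for the basal library of the same day and 5.15% to 14.4% in the other HA35 libraries. The mean share aligned was 50.5% ± 18.9 with HA35 and 54.6% ± 3.65 in basal cells, and the mean share too short was 23.2% ± 23.7 with HA35 and 12.9% ± 8.45 in basal cells (SD, n = 3 each). No difference between the groups passed the test for total reads, the aligned share, the too-short share or the average read length (two-sided exact permutation tests, p = 0.4, 0.8, 0.7 and 0.6, each 0.8 after Benjamini-Hochberg adjustment over the 4 measures). The smallest p for 3 libraries against 3 is 0.1, so no measure could have passed 0.05. The tests therefore do not show that the groups were alike. Within days, total reads were higher with HA35 in 3 of 3 pairs, by 764116, 1843382 and 85009 reads on days 1, 2 and 3 (two-sided exact sign-flip test, p = 0.25, the smallest it can give). Aligned reads were higher with HA35 in only 1 of 3 pairs. Their HA35 minus basal differences were -767029, 1554666 and -60047 reads on days 1, 2 and 3 and were not tested.

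**Figure D1:**
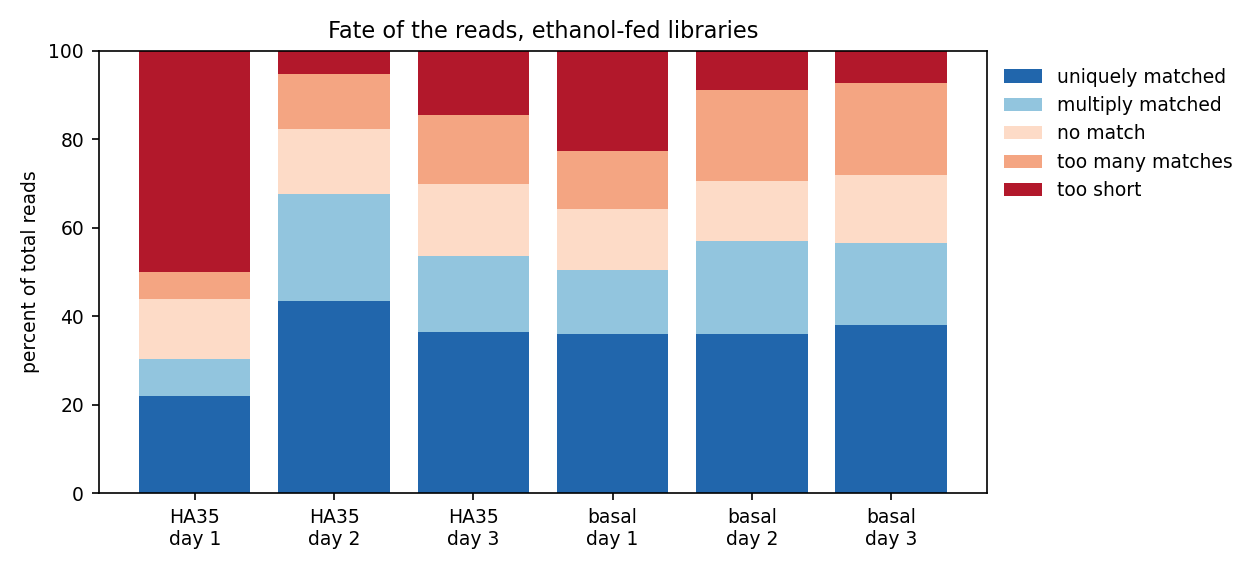
Share of total reads (percent) in 5 alignment classes for the ethanol-fed libraries, HA35 at the left and basal at the right, by day. The too-short class takes 50.1% of HA35 day 1 and 22.6% of basal day 1, the highest of each group.

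Reads discarded for matching too many places in the genome made up 5.97%, 12.5% and 15.7% of the HA35 libraries and 13.2%, 20.6% and 20.7% of the basal libraries of days 1, 2 and 3. Day by day the share was lower with HA35 in 3 of 3 pairs, and the HA35 library of day 3 was above the basal library of day 1. The part of these alignment shares in the miRNA values was not tested.

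The reads matched to each of 21 chromosomes were counted as well, and their shares separated the ethanol-fed HA35 and basal libraries, in either direction, for 2 of them (9.52%). Group labels given at random would separate 3 libraries from 3 with a probability of 0.1, so the count is near the share that random labels give. Chromosome 10 took 24.2%, 20.4% and 24.6% of the reads with HA35 on days 1, 2 and 3, against 26.3%, 25.4% and 25.6% in basal cells. Chromosome 16 took 4.20%, 6.38% and 3.25% with HA35, against 2.92%, 2.74% and 2.63% in basal cells. Both were noticed after all chromosomes had been looked at and were not tested, and HA35 replicate 2 was farthest from the basal libraries in each. Which RNAs carry these reads was not analysed here.

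First, the star strand miR-181b-1* was higher with HA35 on all 3 days. Values are the authors' normalized log2 values, centred so that the median of a miRNA over the 6 libraries is 0, and a difference of 1 is 2-fold. The deposited values were 0.86, 1.38 and -0.05 with HA35 on days 1, 2 and 3, against 0.05, -0.10 and -1.65 in basal cells. The lowest HA35 library, that of day 3, lay within the range of the basal libraries, and the basal library of the same day was the lowest of all 6. The within-day differences were 0.81, 1.48 and 1.60. The group means differed by 1.29 ± 0.69 (SE, n = 3 libraries each), or 2.45-fold, and the within-day differences had an SD of 0.42, the smallest of the 3 miRNAs. Without basal replicate 3 the difference was 0.75, and without HA35 replicate 2 it was 0.97, both below 2-fold.

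For miR-362, the cells of day 1 were far above those of the other days in both groups. Its values were 2.35, -0.11 and 0.11 with HA35 on days 1, 2 and 3, against 1.39, -2.00 and -0.64 in basal cells. The basal library of day 1 exceeded the HA35 libraries of days 2 and 3, so that the spread between days (SD of 1.36 with HA35 and 1.71 in basal cells) was larger than the difference between the groups, 1.20 ± 1.26 (SE, n = 3 libraries each), or 2.30-fold. Within days, HA35 was higher by 0.96, 1.89 and 0.75, with an SD of 0.61. Single libraries set the size of the group difference: it was 0.42 without HA35 replicate 1, 0.41 without basal replicate 2 and 2.10 without basal replicate 1.

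The star strand miR-34a* was flat across the HA35 libraries and varied in the basal ones. It had 0.06, -0.02 and 0.28 with HA35 on days 1, 2 and 3, against 0.02, -2.09 and -0.73 in basal cells. The SD was 0.16 with HA35 and 1.07 in basal cells. In the read recovery below, these values were matched by 5, 9 and 6 reads with HA35 and by 7, 1 and 3 in basal cells. Whether the spread of the groups differed beyond counting error was not tested. On day 1 the difference was 0.04, which is 1.02-fold, whereas it was 2.06 on day 2 and 1.01 on day 3. The groups overlapped, and their means differed by 1.04 ± 0.62 (SE, n = 3 libraries each), or 2.05-fold, just inside the 2-fold limit of the list. Without basal replicate 2, the lowest library, the difference was 0.46.

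**Figure D2:**
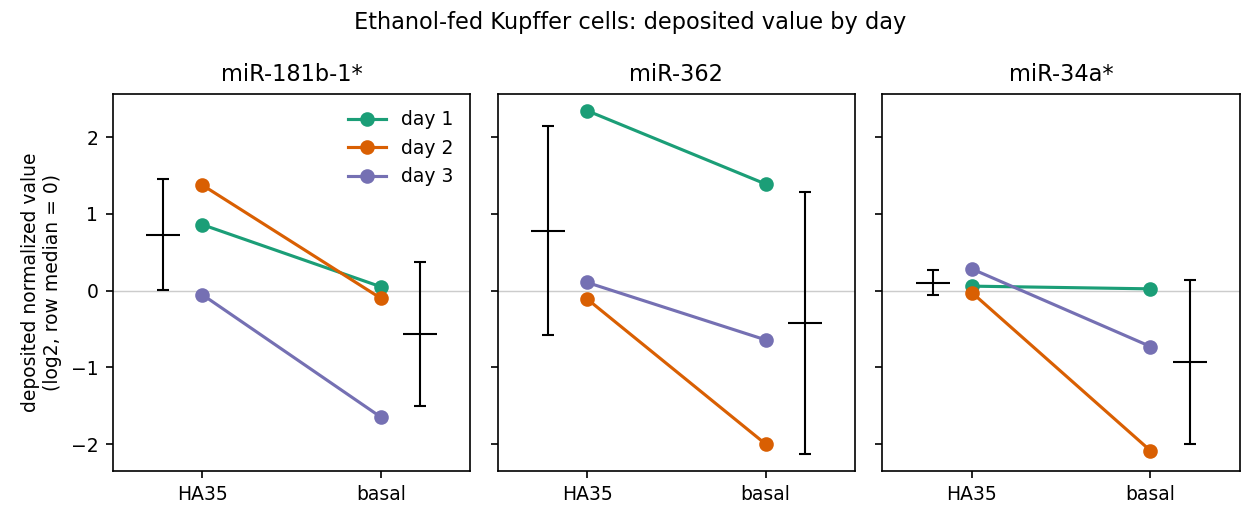
Deposited normalized value (log2, median of each miRNA at 0) of the 3 miRNAs in ethanol-fed Kupffer cells, HA35 at the left and basal at the right. Colored lines join the libraries of a day, and black bars are means with SD (n = 3). Each line is higher at its HA35 end, by 0.04 for miR-34a* on day 1 and by 2.06 on day 2, and the groups overlap in each panel.

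Thus 3 of 3 miRNAs were at least 2-fold higher with HA35 (100% of the list, as it was made that way). Within days, 3 of 3 were higher on every day (100% of the list), a direction that the choice by group difference favors, and for miR-34a* on day 1 by 0.04 only. The ranges of the HA35 and basal libraries overlapped for each of them (0 of 3 separated, 0%). All are near the 2-fold limit, from 2.05-fold for miR-34a* to 2.45-fold for miR-181b-1*, and the miRNAs just outside the limit were not analysed here. The day on which HA35 and basal cells differed most was day 2 for miR-362 and miR-34a*, and day 3 for miR-181b-1*. Of the basal libraries, that of day 2 was the lowest for miR-362 and miR-34a* and that of day 3 for miR-181b-1*. Leaving out day 2, both libraries, gave 0.85 for miR-362 and 0.52 for miR-34a*, with 1.20 for miR-181b-1*.

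**Figure D3:**
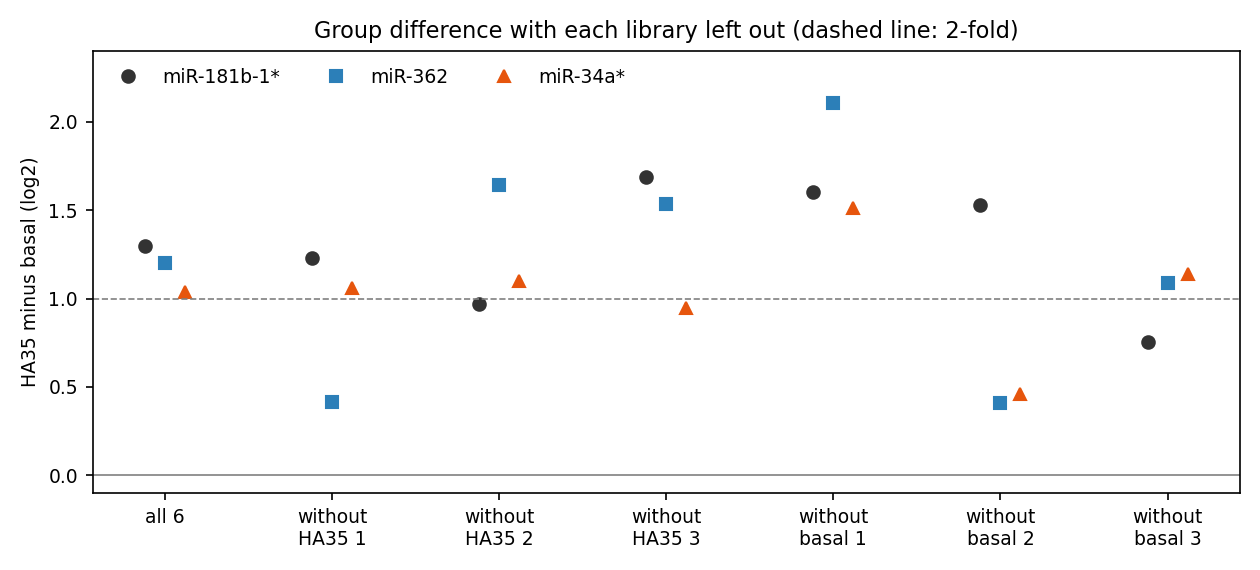
HA35 minus basal difference (log2) of the group means in ethanol-fed cells with all 6 libraries and with each library left out in turn. The dashed line is 2-fold and the solid line is no difference. Each value is above 0, and without basal replicate 2 those of miR-362 and miR-34a* are 0.41 and 0.46.

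The number of reads behind each value was then recovered, as the files give none per miRNA. If a value is the log2 of whole reads times a library factor, differences between miRNAs and libraries can take only certain steps. Small whole numbers of reads returned all 18 deposited values to within 1.4e-07 on the log2 scale, against a tolerance of 1e-05, with no pseudocount. The values of basal replicate 2, and those of miR-181b-1* in the other libraries, are matched by construction. Only the remaining values constrain the reads. A factor per miRNA together with a factor per library would give the same values, so the values alone do not fix the reads. The reads below are those with the smallest sum, and single values could rest on more or fewer. A separate table of basal cells from ethanol-fed and pair-fed rats gave the same reads for 9 of 9 shared values, which are the same values shifted by a constant for each miRNA and so add no support of their own. Across the 9 libraries, the worth of 1 such read times the aligned reads was 0.883 to 1.01 relative to basal replicate 2. With these reads, the deposited values were thus close to reads per aligned read.

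For miR-181b-1*, the values were matched by 11, 30 and 6 reads with HA35 on days 1, 2 and 3, against 9, 5 and 2 reads in basal cells. The values of miR-362 were matched by 23, 8 and 5 reads with HA35, against 17, 1 and 3 reads in basal cells. Those of miR-34a* were matched by 5, 9 and 6 reads with HA35, against 7, 1 and 3 reads in basal cells. The 3 miRNAs together thus came to 151 reads in 6 libraries, and 14 of the 18 values were matched by fewer than 10 reads.

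On day 1, miR-34a* had fewer reads with HA35 than without it, and only its scaling to 1733738 aligned reads, against 2500767 in basal cells, made its values level. The low basal values of day 2 for miR-362 and miR-34a* were both matched by 1 read, for which the 95% Poisson interval is 0.0253 to 5.57 reads. The basal value of miR-181b-1* on day 3 was matched by 2 reads (0.242 to 7.22). These intervals cover counting error only, and reads amplified by PCR are not independent molecules. If the true reads were a multiple of these, the intervals would be narrower.

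**Figure D4:**
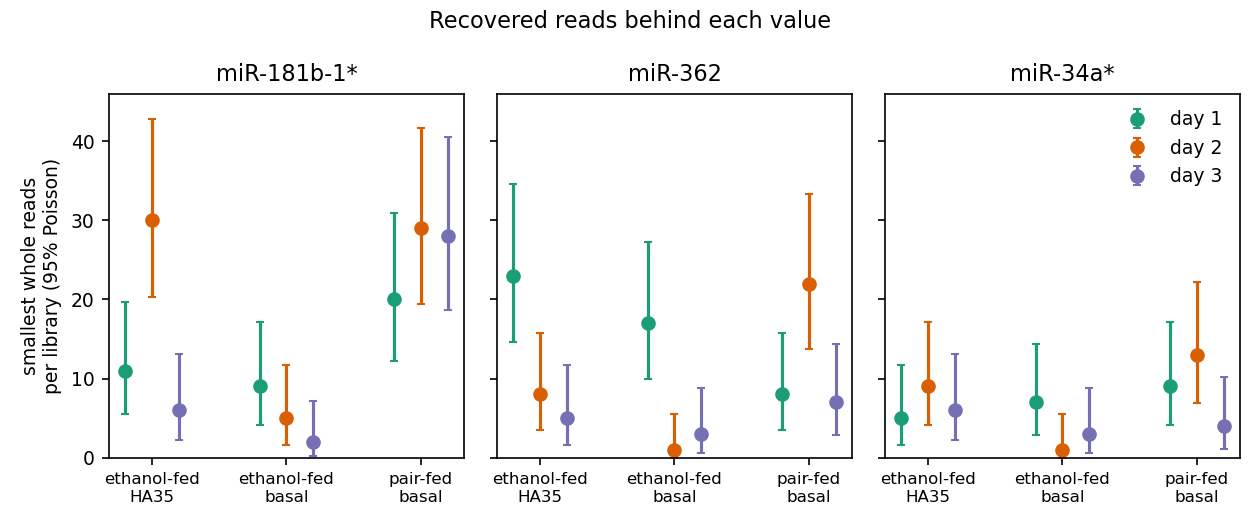
Whole reads of smallest sum that return the deposited values, per library on a linear axis, for ethanol-fed HA35, ethanol-fed basal and pair-fed basal cells, with 95% Poisson intervals. The ethanol-fed basal libraries hold 1 to 17 reads a miRNA, and miR-181b-1* has 20 to 29 reads in the pair-fed libraries.

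Expressed per 1000000 aligned reads, miR-181b-1* had 6.34, 9.42 and 3.21 with HA35 on days 1, 2 and 3, against 3.60, 3.07 and 1.04 in basal cells. Its ratio of HA35 to basal on day 2 was 3.07, with a 95% interval for counting error of 1.18 to 10.1 (exact binomial). As the ratios are those of values that chose the list, these intervals describe counting error and are no test. On day 3 the ratio was 3.10, with an interval of 0.554 to 31.4.

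In the same unit miR-362 had 13.3, 2.51 and 2.68 with HA35, against 6.80, 0.613 and 1.56 in basal cells. The ratio of day 1, which has the most reads, was 1.95 with an interval of 0.998 to 3.89, and that of day 2, 8 reads against 1, was 4.09 with an interval of 0.549 to 182. The level of miR-34a* was 2.88, 2.83 and 3.21 with HA35, against 2.80, 0.613 and 1.56 in basal cells. Its ratio was 1.03 on day 1 (0.258 to 3.77) and 4.61 on day 2 (0.638 to 202), 9 reads against 1.

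Summing reads over the libraries of a group gives the deeper libraries more weight. The sums were 47 reads with HA35 and 16 reads in basal cells for miR-181b-1*, 36 reads with HA35 and 21 in basal cells for miR-362, and 20 reads with HA35 and 11 in basal cells for miR-34a*. Over the summed aligned reads the HA35 to basal ratio of miR-181b-1* was 2.62, that of miR-362 was 1.53 and that of miR-34a* was 1.62. Only miR-181b-1* was then still 2-fold higher. With 1 read added in each library before the log2 step, miR-181b-1* differed by 1.15, miR-362 by 0.93 and miR-34a* by 0.77, and again 1 of 3 passed 2-fold.

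Ethanol feeding itself was the other comparison in which these miRNAs were listed. All 3 are among the 30 miRNAs that the depositors listed as at least 2-fold lower in basal cells of ethanol-fed than of pair-fed rats, that is 100% of the HA35 list and 10% of the ethanol list. In the paper, HA35 effects were sought among miRNAs raised by ethanol, the opposite direction to the lists used here. The paper also cites earlier work on miRNAs lowered by ethanol, which led to miR181b-3p and importin α5. By its account, HA35 normalized that pathway. Whether the HA35 list was drawn from the ethanol list is not stated, and the share over all measured miRNAs was not analysed here, so the overlap is a description. Both comparisons share the 3 ethanol-fed basal libraries, so a low value in one of those enters both, and their values are given side by side only. In basal cells miR-181b-1* was lower after ethanol feeding by 2.05 on the log2 scale (difference -2.05 ± 0.60, SE, n = 3 libraries each), with 9, 5 and 2 reads in ethanol-fed libraries against 20, 29 and 28 reads in pair-fed libraries. These libraries did not overlap, as was the case for 7 of the 30 listed miRNAs (23.3%). The ethanol-fed minus pair-fed difference was -1.08 ± 1.01 for miR-362 and -1.04 ± 0.71 for miR-34a* (SE, n = 3 libraries each), and both overlapped. On day 1 miR-362 was higher after ethanol feeding, by 0.81. Without ethanol-fed basal replicate 2 its group difference was -0.29 and without replicate 1 it was -1.98, and that of miR-34a* was -0.46 without ethanol-fed basal replicate 2. The ethanol list also held 2 of 2 endothelial and 4 of 4 stellate and mesenchymal miRNAs considered. It held 0 of 5 macrophage and leukocyte, 0 of 3 hepatocyte and 0 of 2 erythroid ones. These counts stand without the share over all measured miRNAs, which was not analysed here. The ethanol-fed minus pair-fed differences of the endothelial, stellate and mesenchymal miRNAs ran from -1.93 for miR-126* to -1.02 for miR-214. Their part in the differences of the 3 miRNAs was not tested.

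On the scale of reads per 1000000 aligned, HA35-treated cells can be set beside pair-fed basal cells. All 3 miRNAs were chosen as higher with HA35 and are also in the list chosen as lower with ethanol feeding. The choice of rows thus placed both HA35-treated and pair-fed cells above ethanol-fed basal cells, and the values are a description. Only the order of HA35-treated and pair-fed cells was left free. The mean of miR-181b-1* was 6.33 ± 3.10 in ethanol-fed cells with HA35, 2.57 ± 1.35 in ethanol-fed basal cells and 10.4 ± 3.24 in pair-fed basal cells (SD, n = 3 each). For miR-362 it was 6.15 ± 6.16 in ethanol-fed cells with HA35, 2.99 ± 3.33 in ethanol-fed basal cells and 4.37 ± 1.24 in pair-fed basal cells. For miR-34a* it was 2.97 ± 0.21 in ethanol-fed cells with HA35, 1.66 ± 1.10 in ethanol-fed basal cells and 3.24 ± 1.17 in pair-fed basal cells. The means with HA35 of miR-34a* and miR-181b-1* lay below the pair-fed basal mean, and that of miR-362 lay above it, where HA35 replicate 1 alone reached 13.3. Pair-fed cells treated with HA35 have no values for these miRNAs in the tables used, so whether the response to HA35 depended on ethanol feeding was not tested.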

How the data were processed

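Small RNA of Kupffer cells was isolated with a miRNeasy kit, and TruSeq small RNA libraries were made from 10 ng of total RNA and sequenced on a HiSeq instrument. Groups and days were taken from the sample labels. HTSeq, DESeq and the rat build rn4 are named in the submitters' processing notes. The authors deposited normalized log2 values of preselected miRNAs, centred on the median of each miRNA over 6 libraries. Their alignment report, also deposited, holds whole numbers of reads per library and other read statistics. The step that normalized the values is not stated in those notes or in the paper. The authors' own fold changes, directions and p-values (Audic-Claverie test, with correction) were not used, and 0 columns of single samples were left unused. Neither the lists of miRNAs nor their sizes were set here: the members and the miRNAs named were chosen with earlier results of these data known. All 3 miRNAs of the HA35 list were named, with their hairpin partners, cluster and family members.

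Differences are means of log2 values, HA35 minus basal, with no filter and no pseudocount, and no test was run on them because the list was selected on them. Depth was compared by two-sided exact permutation tests with Benjamini-Hochberg adjustment. Reads were recovered by a search for the whole numbers of smallest sum, up to 100 reads a value, that return every value of the 3 miRNAs within 1e-05. The search allowed up to 12 reads a miRNA in ethanol-fed basal replicate 2 and dropped whole multiples of a miRNA. Within these limits, which set the number, it gave 11 distinct solutions for the HA35 comparison and 20 for the ethanol comparison. By the form of the search, all differ from the solution of smallest sum only by a factor per miRNA and a factor per library, so this is no support for the reads. Intervals are exact Poisson or exact binomial at 95%. The recovery of reads, the addition of 1 read and the summed reads were chosen after the data were seen. Same-numbered libraries share a day in the labels and were taken as paired for the within-day differences, the day as a block and the sign-flip tests. The SE beside each group difference and the permutation tests do not use this pairing. Their deviations from the group means correlated over the 3 miRNAs at 0.93, 0.95 and 0.82 for days 1, 2 and 3. Each correlation rests on only 3 points from the selected miRNAs, and the 3 are not independent, so they do not test the pairing. Alternatives were medians, linear means, the day as a block, leaving out libraries and days, other fold limits and reads per 1000000 aligned reads. Python 3.11.15, numpy 2.4.6, pandas 2.3.3, scipy 1.17.1 and matplotlib 3.10.9 were used. The reference tables are of another build than rn4, so no coordinates are given.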

Additional observations from a re-analysis of the deposited data

How the results depend on the processing

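The differences of the 3 miRNAs kept their direction in all 15 alternatives each. That direction selected the miRNAs, and the alternatives reuse the same 6 libraries, so this describes the values and is no test. With libraries or days left out in turn they ranged from 0.75 to 1.68 (miR-181b-1*), from 0.41 to 2.10 (miR-362) and from 0.46 to 1.54 (miR-34a*). The count of miRNAs at least 2-fold higher, 3 in the comparison of group means, ranged from 1 to 3 with libraries or days left out (1 without basal replicate 2, or without day 2). It was 0 at a 3-fold limit, 1 with 1 read added in each library and 1 for summed reads. The count higher on every day was 3, and 2 when a within-day difference of 0.5 was asked for. With the day as a replicate block the differences are the same by arithmetic (1.29, 1.20 and 1.04). The SE of miR-181b-1* became 0.24, that of miR-362 0.35 and that of miR-34a* 0.59. The paired exact sign-flip tests gave p = 0.25 for total reads, the smallest they can give, 0.75 for the share aligned, 0.5 for the share too short and 0.5 for read length. The difference in the share aligned, -4.17 percentage points, ranged from -12.7 to 5.93 with libraries left out, and that in the share too short, 10.3, from -3.14 to 19.3. Both turned round without HA35 replicate 1 (5.93 and -3.14). For the miRNA differences the depth is known only through the recovered reads of smallest sum, 1 to 30 a value.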
